A study of Mus musculus with 2 samples.

Results

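The genes described here are 36 genes of protein folding in the endoplasmic reticulum (ER) and of the unfolded protein response, picked by symbol, of 23337 symbols in the deposited count table. They comprise 4 stress sensors and their transcription factors, 13 chaperones and co-chaperones, 7 disulfide enzymes and relatives, 6 genes of ER-associated degradation and 6 genes of translocation into the ER. All 36 were in the table, and all 36 had at least 5 CPM (a count scaled to the total of its library) in at least 1 library. RNA came from 2 libraries, called IL-33 Tregs and PBS Tregs here, of regulatory T (Treg) cells sorted from injured skeletal muscle. The IL-33 Tregs came from mice whose tibialis anterior, quadriceps and gastrocnemius received the myotoxic venom peptide cardiotoxin together with 0.3 ug of recombinant IL-33. The PBS Tregs came from mice whose muscles received cardiotoxin and PBS, so injury was common to both. Both used 8-week-old males of the Foxp3-IRES-GFP/C57BL/6 background, in which green fluorescent protein marks cells that express Foxp3, and 5000 cells were sorted 4 days after injury. The number of mice behind each library is not given in the sources used here.

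Each treatment had 1 library, so no difference below has a replicate check, no test was possible, and "higher" and "lower" compare 2 libraries. The IL-33 Tregs held 4080791 counts and PBS Tregs 1573707. Ratios are CPM in IL-33 Tregs over CPM in PBS Tregs, each followed by its exact 95% interval, which covers counting error only. Where a pair of values is short, (IL-33) and (PBS) stand for the libraries. The log2 fold is taken on CPM plus 1, which understates the differences of low genes. Over the 9005 genes that reached 5 CPM, the median log2 fold was -0.08. Scaling by trimmed mean of M-values (TMM) added 0.12 to every log2 ratio, so small differences have no settled direction: 5 of the 36 genes (Canx, Derl1, Dnajb11, Ssr3 and Syvn1) lay below 0 by library total and above 0 by TMM. In bulk RNA, fewer cells of a kind and less RNA per cell cannot be told apart.

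Secreted and membrane proteins enter the ER through the SEC61 channel and are folded there by chaperones of the HSP70 and HSP90 families, by the lectins calnexin and calreticulin, and by disulfide isomerases. When unfolded proteins accumulate, the sensors IRE1, ATF6 and PERK (encoded by Ern1, Atf6 and Eif2ak3) lower translation and raise the chaperone, degradation and translocation genes, partly through the transcription factor XBP1. Activated T cells, Treg cells among them, make receptors and cytokines along this route.

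Many genes of this response share a promoter sequence, the ER stress response element (ERSE), at which ATF6 and XBP1 act together with the factor NF-Y. The genes here were picked by symbol as genes of ER folding and this response, so a high share of matches among them is not an independent result. Promoters from 250 bases before to 50 bases after each gene's start, taken from RefSeq (GRCm38.p6), were searched on both strands for the box CCAAT followed, after 9 bases of any kind, by the box CCACG. Of the 36 genes, 29 had a promoter in the RefSeq table; those without an entry were Atf6, Hyou1, Hspa13, Manf, Derl1, Sec61a1 and Ssr2. The element was found in 8 of the 29 (Hspa5, Hsp90b1, Calr, Canx, Dnajc3, Pdia6, Creld2 and Syvn1), against 37 of all 27025 genes in the table (0.137%). The first line below is the whole stretch of 250 bases before the start of Hspa5, chr2:34771840-34772089 on the plus strand, whose single element runs from -65 to -47. The lines after it show the elements of the other genes with 15 bases on either side. All are written 5′ to 3′ on the strand of the gene, and capitals mark the 2 boxes, which read CGTGG and ATTGG where the element lies on the opposite strand. The windows lie at chr10:86705518-86705566 for the Hsp90b1 element nearer to the start, chr8:84847060-84847108 for Calr, chr11:50325785-50325833 for Canx (these 3 on the minus strand), and on the plus strand at chr14:118937812-118937860 for Dnajc3, chr12:17266476-17266524 for Pdia6, chr15:88819505-88819553 for Creld2 and chr19:6046517-6046565 for Syvn1.
Hspa5: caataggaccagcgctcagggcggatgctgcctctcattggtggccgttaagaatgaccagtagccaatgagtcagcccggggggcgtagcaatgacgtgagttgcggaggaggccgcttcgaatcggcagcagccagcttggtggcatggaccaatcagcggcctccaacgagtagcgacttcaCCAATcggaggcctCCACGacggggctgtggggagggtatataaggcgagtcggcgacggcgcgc
Hsp90b1: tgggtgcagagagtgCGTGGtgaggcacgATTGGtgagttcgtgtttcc
Calr: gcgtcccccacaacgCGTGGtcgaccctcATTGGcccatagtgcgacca
Canx: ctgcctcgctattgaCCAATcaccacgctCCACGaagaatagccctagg
Dnajc3: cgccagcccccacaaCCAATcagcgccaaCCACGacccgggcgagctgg
Pdia6: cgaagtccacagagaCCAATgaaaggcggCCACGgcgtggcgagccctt
Creld2: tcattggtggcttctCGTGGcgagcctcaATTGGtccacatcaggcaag
Syvn1: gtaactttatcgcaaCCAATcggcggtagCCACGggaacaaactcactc

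Hsp90b1 held a second element farther from its start, from -212 to -194. The related element ERSE-II, the box ATTGG and, after 1 base of any kind, the box CCACG, was found in Herpud1 and Dnajb11, 2 of the 29, against 0.0444% of all genes. In Herpud1 it lay from -52 to -42, at chr8:94386362-94386402 with its flanks on the plus strand, and its 2 boxes stand 1 base apart in place of 9.
Herpud1: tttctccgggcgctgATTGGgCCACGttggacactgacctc
The core of the unfolded protein response element, TGACGTGG, was found in Txndc5 alone of the 29 and in 0.714% of all genes, and the C/EBP-ATF element, TGATGCAAT, in 0 of the 29 and in 0.222% of all genes. A match describes letters in a window and is not evidence that a factor binds there, and an absent match says only that these letters are not in the window.

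The ER folding genes took 0.720% of all counts in IL-33 Tregs (Wilson 95% interval 0.712 to 0.728) and 0.781% in PBS Tregs (0.768 to 0.795). Their summed level was 7197 CPM in IL-33 Tregs and 7812 CPM in PBS Tregs (ratio 0.921, 0.902 to 0.941). By TMM the summed ratio was 1.002 (0.981 to 1.02), so the direction of the sum depended on the scaling. Hspa5 and Hsp90b1 made up 32.8% of the counts of these genes in IL-33 Tregs (32.3 to 33.4) and 38.4% in PBS Tregs (37.6 to 39.3). Without this pair, the summed level was 4835 CPM in IL-33 Tregs and 4811 CPM in PBS Tregs (ratio 1.005, 0.979 to 1.03), while by TMM the ratio of the other 34 genes was 1.09 (1.06 to 1.12), so whether their sum differed also depended on the scaling.

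**Figure D1:**
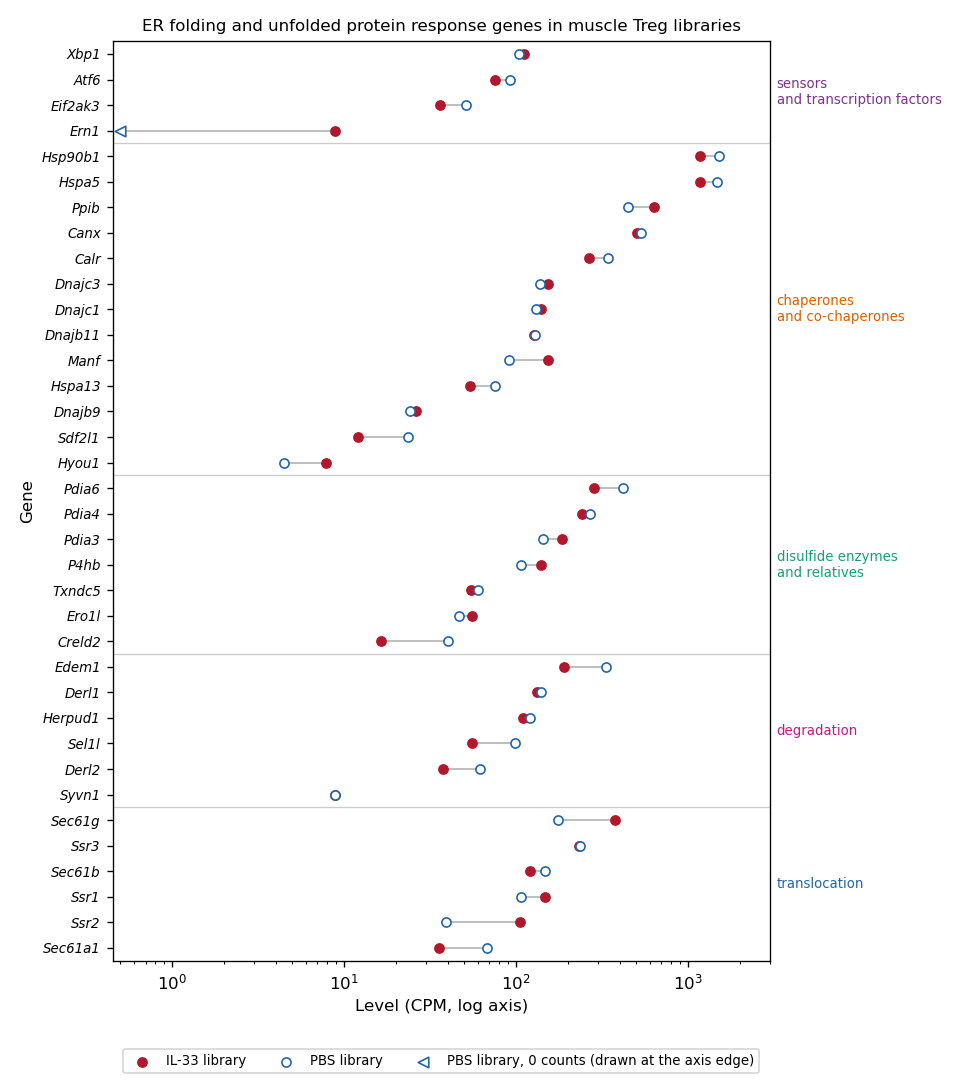
Level of each of the 36 genes in CPM (log axis) in IL-33 Tregs (filled) and PBS Tregs (open), grouped by role and sorted by mean level; a line joins the 2 values of a gene. Most pairs of points lie close together; the widest gaps are those of Ern1, which had 0 counts in PBS Tregs, and of Ssr2, Creld2 and Sec61g.

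Levels of different genes were set side by side per kilobase of transcript. This order is rough, since the RNA was amplified and the annotation used for counting is not given. On this scale the 5 highest genes were the same in both libraries, in another order. They were Ppib at 713 CPM per kb in IL-33 Tregs and 505 in PBS Tregs, Sec61g at 511 (IL-33) and 239 (PBS), Hsp90b1 at 418 (IL-33) and 539.8 (PBS), Hspa5 at 376 (IL-33) and 469.7 (PBS), and Sec61b at 213 (IL-33) and 263 (PBS). These encode a prolyl isomerase, the gamma and beta subunits of the SEC61 channel, and the ER forms of HSP90 and HSP70. At the other end stood Ern1, at 1.27 CPM per kb in IL-33 Tregs and 0 in PBS Tregs, Hyou1 at 1.77 (IL-33) and 1.004 (PBS), and Syvn1 at 2.66 (IL-33) and 2.69 (PBS). Among the sensors and their factors, Xbp1 was the highest, at 52.4 (IL-33) and 48.7 (PBS) CPM per kb, ahead of Atf6 at 10.4 (IL-33) and 12.7 (PBS) and Eif2ak3 at 8.04 (IL-33) and 11.3 (PBS).

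At 2-fold or more on the log2 scale, 3 of the 36 genes were higher in IL-33 Tregs (Ern1, Sec61g and Ssr2), against 15.5% of all 9005 genes, and 1 was lower (Creld2), against 16.3%. These are fewer than the share over all genes, but most of the 36 were well counted, and well-counted genes differed less. Among the 3566 genes averaging 50 CPM or more, 3.53% were 2-fold higher and 4.96% were 2-fold lower. Of the 28 ER folding genes at that level, 2 were 2-fold higher and 0 lower. Their log2 folds ran from -0.89 to 1.39 with an SD of 0.54 over genes, against an SD of 0.57 over all genes of that level. Their median was -0.07, against -0.10.

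Counting error alone left the direction open for 15 of the 36 genes. The interval lay above 1 for 8 (22.2%; 28.6% of all 9005 genes) and below 1 for 13 (36.1%; 35.1% of all genes). By TMM these numbers were 9 and 11, against 33.4% and 29.7% of all genes. Neither direction was thus more frequent by a wide margin in these genes than in the rest of the table. The groups by role are described in turn.

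**Figure D2:**
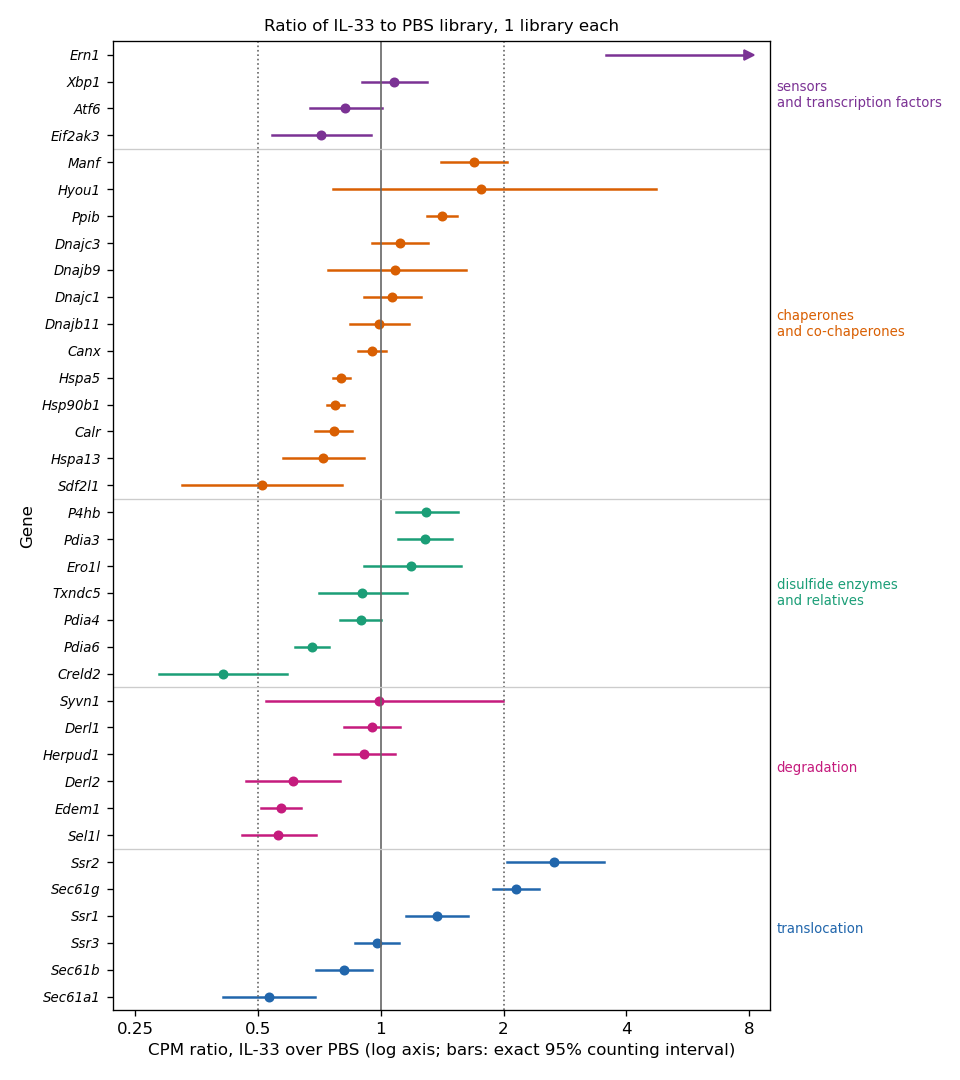
Ratio of CPM in IL-33 Tregs over CPM in PBS Tregs for each gene (log axis), grouped by role, with the exact 95% counting interval as a bar; dotted lines mark 2-fold. The arrow of Ern1 starts at its lower limit because its PBS count was 0. Sel1l, Edem1 and Derl2 sit left of 1, and Ssr2 and Sec61g sit beyond 2.

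Ern1 encodes IRE1, the sensor kinase and RNase that splices Xbp1 mRNA. It had 36 counts in IL-33 Tregs and 0 in PBS Tregs (chromosome 11, 106394650 to 106487852, GENCODE M21 on GRCm38). With the PBS count set at a floor of 3, it was 4.63-fold higher, and the exact interval of its ratio started at 3.57. The gene was thinly counted: its mean level was under 10 CPM, a range in which 37.2% of genes were 2-fold higher in IL-33 Tregs and 31.3% were 2-fold lower. Xbp1, the target of IRE1, was at 111 CPM in IL-33 Tregs and 104 CPM in PBS Tregs (ratio 1.08, 0.898 to 1.30). Counts per gene do not separate spliced from unspliced Xbp1. Eif2ak3, which encodes PERK, the kinase that slows translation by phosphorylating eIF2alpha, was at 36.3 CPM in IL-33 Tregs and 50.8 CPM in PBS Tregs (ratio 0.713, 0.540 to 0.949). By TMM the interval of Eif2ak3 held 1. Atf6, whose product is cut in the Golgi to release a transcription factor, was at 75.5 CPM (IL-33) and 92.1 CPM (PBS), a ratio of 0.819 (0.670 to 1.005). Apart from Ern1, the sensors and Xbp1 were therefore within 2-fold.

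The chaperone genes with the most counts, Hspa5 and Hsp90b1, were lower in IL-33 Tregs. Hspa5, the ER HSP70 known as BiP (chromosome 2, 34771970 to 34777547), had 4822 counts in IL-33 Tregs and 2323 in PBS Tregs. This is 1182 CPM in IL-33 Tregs and 1476 CPM in PBS Tregs (ratio 0.8005, 0.762 to 0.841). Hsp90b1, the ER HSP90 known as GRP94 (chromosome 10, 86690209 to 86705509), had 4819 counts in IL-33 Tregs and 2400 in PBS Tregs. This is 1181 CPM in IL-33 Tregs and 1525 CPM in PBS Tregs (ratio 0.774, 0.737 to 0.814). Both genes kept close to the same proportion to each other, with 0.999 counts of Hsp90b1 per count of Hspa5 in IL-33 Tregs and 1.03 in PBS Tregs. Calr, the soluble lectin chaperone calreticulin, was at 264 CPM in IL-33 Tregs and 344 CPM in PBS Tregs (ratio 0.766, 0.690 to 0.851). Canx, its membrane-bound relative calnexin, was at 508 CPM (IL-33) and 534 CPM (PBS), a ratio of 0.951 (0.878 to 1.03), and its direction turned with the scaling. Hspa5, Hsp90b1 and Calr stayed below 0 by each scaling used, with log2 folds by TMM of -0.20 for Hspa5 and -0.25 for Hsp90b1. Markers of fibroblasts, which secrete collagen and carry much ER, had a summed level of 0 CPM in IL-33 Tregs and 86.4 CPM in PBS Tregs. The 36 genes went both ways beside them. By library total 13 had an interval below 1 and 8 above 1, Ppib and P4hb among the 8, against 35.1% and 28.6% of all genes. The part of fibroblasts in these values was not tested. In PBS Tregs 4 of the 7 fibroblast markers were detected, Col3a1 (78 counts), Postn (32), Dcn (24) and Pdgfra (2), and Col1a1, Col1a2 and Lum were at 0.

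The remaining chaperones went both ways. Hspa13, an ER HSP70 relative, was at 54.2 CPM in IL-33 Tregs and 75.0 CPM in PBS Tregs (ratio 0.722, 0.575 to 0.911). Sdf2l1, which forms a complex with J-domain proteins at BiP, had 49 counts in IL-33 Tregs and 37 in PBS Tregs, or 12.0 CPM (IL-33) and 23.5 CPM (PBS), a ratio of 0.511 (0.326 to 0.805). Manf, a small secreted ER protein that binds BiP, was higher in IL-33 Tregs at 153 CPM, against 90.9 CPM in PBS Tregs (ratio 1.69, 1.41 to 2.04). Exons of Manf overlap those of Rbm15b on the same strand and of Dcaf1 (Vprbp in the table) on the other. Rbm15b had 33 counts in IL-33 Tregs and 0 in PBS Tregs, and Vprbp had 179 (IL-33) and 249 (PBS). The part of shared reads in the value of Manf was not tested. Ppib, the ER cyclophilin B, was at 636 CPM in IL-33 Tregs and 451 CPM in PBS Tregs (ratio 1.41, 1.30 to 1.54).

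The J-domain co-chaperones, which hand substrates to BiP and start its ATPase, did not differ beyond counting error by library total. Dnajb9 was at 26.2 CPM in IL-33 Tregs and 24.1 CPM in PBS Tregs (ratio 1.09, 0.744 to 1.62). Dnajb11 was at 128 CPM (IL-33) and 129 CPM (PBS), a ratio of 0.992 (0.842 to 1.17). Dnajc3 was at 154 CPM (IL-33) and 138 CPM (PBS), a ratio of 1.11 (0.953 to 1.31), and Dnajc1 at 139 CPM (IL-33) and 130.3 CPM (PBS), a ratio of 1.07 (0.908 to 1.26). Hyou1, the large nucleotide exchange factor of BiP, had 32 counts in IL-33 Tregs and 7 in PBS Tregs (ratio 1.76, 0.764 to 4.73). Over the 13 chaperones, the median log2 fold was -0.01 and none differed by 2-fold. Their summed level was 4445 CPM in IL-33 Tregs and 4946 CPM in PBS Tregs (ratio 0.899, 0.875 to 0.923) by library total and 0.977 (0.952 to 1.004) by TMM.

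Disulfide enzymes were split as well. Pdia6, an isomerase that also binds IRE1, was at 283 CPM in IL-33 Tregs and 417 CPM in PBS Tregs (ratio 0.678, 0.615 to 0.747). Pdia4, the isomerase ERp72, was at 241 CPM (IL-33) and 269 CPM (PBS), a ratio of 0.893 (0.796 to 1.003). Pdia3, the isomerase ERp57 that works with calnexin and calreticulin, was at 185 CPM in IL-33 Tregs and 144 CPM in PBS Tregs (ratio 1.28, 1.10 to 1.49). P4hb, protein disulfide isomerase itself, was at 139 CPM (IL-33) and 107 CPM (PBS), a ratio of 1.29 (1.09 to 1.55). The intervals of Pdia3 and P4hb lay above 1 and that of Pdia6 below 1, so these isomerase genes moved in unequal measure between the libraries.

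Creld2, an ER protein with disulfide isomerase activity, was the single gene of the 36 that was 2-fold lower in IL-33 Tregs (chromosome 15, 88819646 to 88826683). It had 67 counts in IL-33 Tregs and 63 in PBS Tregs, or 16.4 CPM (IL-33) and 40.03 CPM (PBS), a ratio of 0.410 (0.286 to 0.588). Of the 3511 genes averaging 10 to 50 CPM, 19.5% were 2-fold lower. Ero1l, the oxidase that reoxidises protein disulfide isomerase, was at 55.1 CPM in IL-33 Tregs and 46.4 CPM in PBS Tregs (ratio 1.19, 0.909 to 1.57). Txndc5, an isomerase with thioredoxin domains, was at 54.4 CPM (IL-33) and 60.4 CPM (PBS), a ratio of 0.901 (0.706 to 1.16). Neither Ero1l nor Txndc5 differed beyond counting error. The median log2 fold of the group was -0.15.

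Genes of ER-associated degradation, which pull misfolded proteins back to the cytosol for destruction, had the lowest median log2 fold of the 5 groups, -0.42. All 6 lay below 0 by library total, where 54.4% of all genes did, and 4 of the 6 by TMM, where 48.3% of all genes did, since Derl1 and Syvn1 turned. Edem1, a mannosidase-like protein that hands over glycoproteins for disposal (chromosome 6, 108828641 to 108859356), had 772 counts in IL-33 Tregs and 523 in PBS Tregs. This is 189 CPM in IL-33 Tregs and 332 CPM in PBS Tregs (ratio 0.569, 0.509 to 0.637). Sel1l, the scaffold of the main degradation complex (chromosome 12, 91806043 to 91849157), had 227 counts in IL-33 Tregs and 156 in PBS Tregs, or 55.6 CPM (IL-33) and 99.1 CPM (PBS), a ratio of 0.561 (0.456 to 0.693). Derl2, a derlin of the exit channel, was at 37.5 CPM (IL-33) and 61.6 CPM (PBS), a ratio of 0.608 (0.469 to 0.793). The intervals of Edem1, Sel1l and Derl2, 3 of the 6, lay below 1 by each of the 3 scalings, and none of the 3 reached 2-fold. Of all genes, 35.1% had an interval below 1 by library total and 29.7% by TMM.

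The other degradation genes did not differ beyond counting error. Derl1 was at 133 CPM in IL-33 Tregs and 139.8 CPM in PBS Tregs (ratio 0.9501, 0.811 to 1.12). Herpud1, a membrane protein that organises the complex and a classical target of the unfolded protein response, was at 109 CPM (IL-33) and 120.1 CPM (PBS), a ratio of 0.910 (0.766 to 1.08). Syvn1, the ubiquitin ligase HRD1 that SEL1L holds, had 36 counts in IL-33 Tregs and 14 in PBS Tregs (ratio 0.992, 0.522 to 1.99). The counts of Sel1l per count of Syvn1 were 6.31 in IL-33 Tregs and 11.1 in PBS Tregs. Summed, the 6 genes stood at 533 CPM in IL-33 Tregs and 762 CPM in PBS Tregs (ratio 0.6999, 0.652 to 0.752), or 0.761 (0.709 to 0.817) by TMM. Of this summed level, Edem1 was the largest term in both libraries. The fibroblast markers given above were likewise higher in PBS Tregs, and their part in the degradation values was not tested. An exon of Derl2 overlaps Mis12 on the other strand, which had 55 counts in IL-33 Tregs and 3 in PBS Tregs.

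Translocation genes held both the highest and the lowest log2 fold among the 28 genes averaging 50 CPM or more, 1.39 for Ssr2 and -0.89 for Sec61a1. Summed, the 6 genes stood at 1014 CPM in IL-33 Tregs and 773 CPM in PBS Tregs (ratio 1.31, 1.23 to 1.40), or 1.43 (1.34 to 1.52) by TMM. By library total 3 of the 6 intervals lay above 1 and 2 below, and by TMM 3 and 1. Ssr2 encodes the beta subunit of the translocon-associated protein complex (chromosome 3, 88575876 to 88588419). It had 428 counts in IL-33 Tregs and 62 in PBS Tregs, or 105 CPM (IL-33) and 39.4 CPM (PBS), a ratio of 2.66 (2.04 to 3.53). Ssr1, the alpha subunit, was at 147 CPM (IL-33) and 107 CPM (PBS), a ratio of 1.37 (1.15 to 1.64), and Ssr3, the gamma subunit, at 231 CPM (IL-33) and 236 CPM (PBS), a ratio of 0.979 (0.867 to 1.11). The intervals of these 3 subunits of 1 complex did not overlap one another. Ssr4, the delta subunit, belongs to the further ER genes listed below. It was at 96.5 CPM (IL-33) and 81.3 CPM (PBS), a ratio of 1.19 (0.970 to 1.46). The interval of Ssr4 overlapped those of Ssr1 and Ssr3 and lay below that of Ssr2, and by TMM it lay above 1. How often the intervals of other gene pairs overlap was not tested. Per kilobase, the level of Ssr2 was 1.19 times that of Ssr3 in IL-33 Tregs and 0.438 times in PBS Tregs.

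The SEC61 channel showed the same unevenness. Sec61g, the gamma subunit (chromosome 11, 16500530 to 16508484), had 1532 counts in IL-33 Tregs and 276 in PBS Tregs, or 375 CPM (IL-33) and 175 CPM (PBS), a ratio of 2.14 (1.88 to 2.44). Sec61a1, the pore-forming subunit (chromosome 6, 88503579 to 88518905), had 146 counts in IL-33 Tregs and 106 in PBS Tregs, or 35.8 CPM (IL-33) and 67.4 CPM (PBS), a ratio of 0.531 (0.411 to 0.689). Sec61b, the beta subunit, was at 120.1 CPM (IL-33) and 148 CPM (PBS), a ratio of 0.811 (0.692 to 0.952), and its interval held 1 by TMM. There were 10.5 counts of Sec61g per count of Sec61a1 in IL-33 Tregs and 2.60 in PBS Tregs, and per kilobase the ratios were 45.3 in IL-33 Tregs and 11.2 in PBS Tregs. Of the 990 genes averaging 200 CPM or more, 1.21% were 2-fold higher in IL-33 Tregs, Sec61g among them, and of the 2576 genes at 50 to 200 CPM, 4.43% were, with Ssr2 among them. For Sec61g, 4 other genes in GENCODE M21 carry a stretch of at least 200 nt at 95% identity or more, and for Sec61b there are 3. None of these has a row in the table, and how their reads were counted is not given in the sources used here.

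Transcript lengths in this group were set beside the log2 folds. Sec61g (735 nt) and Ssr2 (1124 nt) were short, as were Sec61b (564 nt) and Ppib (892 nt), while Sec61a1 measured 3172 nt and Ssr1 9333 nt. Over genes averaging 50 CPM or more, the median log2 fold was 0.10 in the shortest of 5 length groups and -0.19 in the longest. Across the 28 ER folding genes at that level, which share both libraries, Spearman's rho between length and log2 fold was -0.27, and across 3542 genes it was -0.21. Of the 36 genes, 6 belonged to the shortest group, and their log2 folds went both ways, above 0 for Sec61g, Ssr2 and Ppib and below 0 for Sec61b, Sdf2l1 and Creld2. With the median of its length group subtracted, Ssr2 had a log2 fold of 1.28 and Sec61g 0.99, so Sec61g was no longer past 2-fold. Sdf2l1 then reached -1.02. Genes went both ways beside their length groups. Ssr1, in the longest group, and Manf (2247 nt), in the second shortest, were above 0 and Sec61b, in the shortest, below 0, opposite to their group medians. Edem1 and Sel1l, in the longest group, and Ppib, in the shortest, lay in the direction of theirs. The part of length in these values was not tested.

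**Figure D3:**
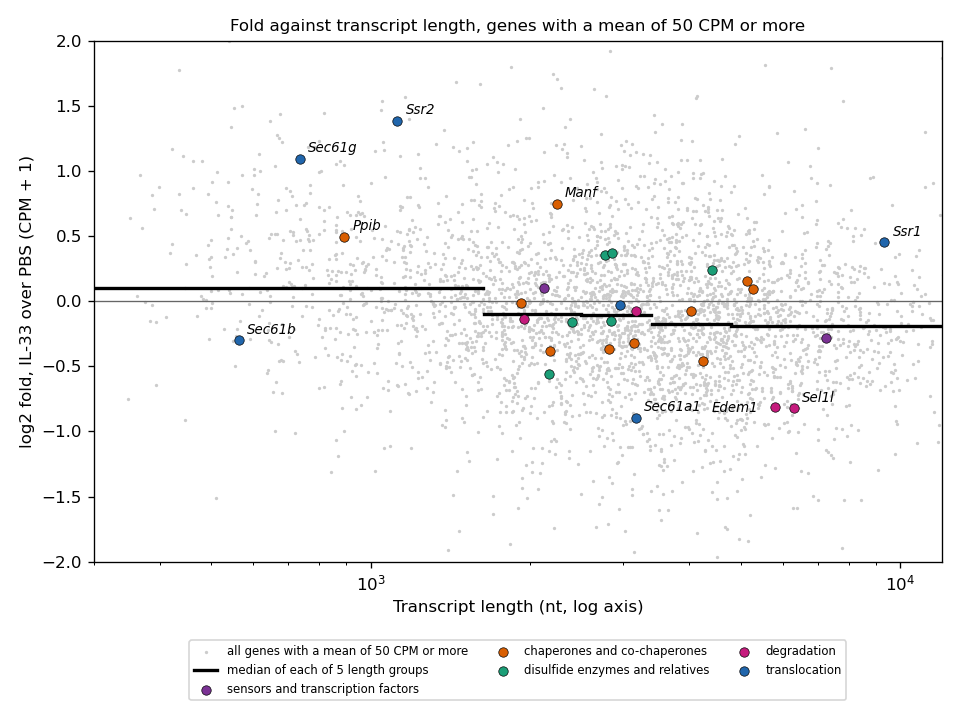
log2 fold of IL-33 over PBS against transcript length (log axis) for genes averaging 50 CPM or more; grey points are all such genes, black lines the median of each of 5 length groups, coloured points the ER folding genes by role. The medians run from 0.10 in the shortest group to -0.19 in the longest, and Sec61g and Ssr2 lie among short transcripts while Edem1 and Sel1l lie among long ones. Of 3542 genes, 58 fall outside the plotted range.

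Genes that carry an ERSE were set beside those without one. The 8 with the element had a median log2 fold of -0.34, with 7 of 8 below 0 by library total (54.4% of all genes) and 5 of 8 by TMM (48.3% of all genes), where Canx and Syvn1 turned. The interval lay below 1 by each scaling for 5 of the 8, namely Hspa5, Hsp90b1, Calr, Pdia6 and Creld2, against 35.1% of all genes by library total and 29.7% by TMM. It lay above 1 for 0 of them by library total and for 1 by TMM. The 21 with a searched promoter and no ERSE had a median of -0.01, with 6 intervals below 1 and 6 above by library total, and 4 below and 6 above by TMM. Among them were Herpud1 and Dnajb11, which carry ERSE-II, and Txndc5, which carries the core of the unfolded protein response element. Of these 21, 11 lay below 0 by library total and 9 by TMM. The genes with the element also had the higher mean CPM, with a median of 327 against 123, and the part of level in this difference was not tested. The summed ratio of the 8 was 0.802 (0.780 to 0.825) by library total and 0.872 (0.848 to 0.897) by TMM, and that of the 21 was 1.08 (1.04 to 1.11) by library total and 1.17 (1.13 to 1.21) by TMM. These sums lean on few genes. In IL-33 Tregs Hspa5 (4822 counts) and Hsp90b1 (4819) had the most counts of the 8, and Ppib (2594) and Sec61g (1532) the most of the 21. The fibroblast markers, at 0 CPM in IL-33 Tregs and 86.4 CPM in PBS Tregs, were higher in PBS Tregs, as the 8 were in sum and the 21 were not. Their part in the values of either group was not tested. Outside the 36, 29 genes carried an ERSE, and 5 of them were found under the same symbol among the genes that reached 5 CPM. Older symbols were not matched in this step, so 5 is a minimum. Of these 5, the RNA-binding protein gene Hnrnpa3 had an interval above 1, the deadenylase gene Pan2 an interval below 1, and the other 3 an interval that held 1.

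**Figure D4:**
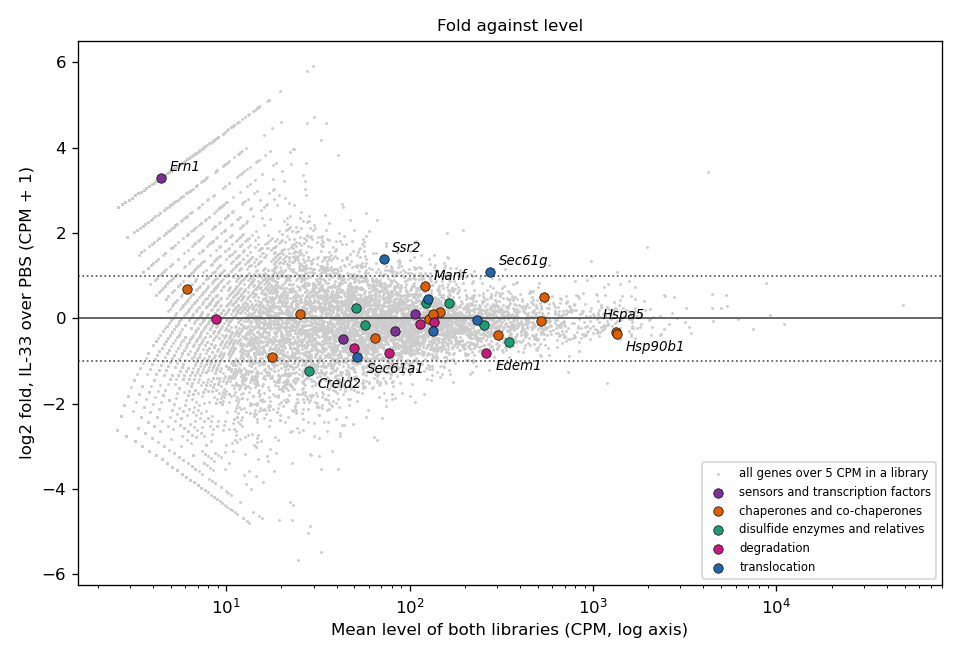
log2 fold of IL-33 over PBS against the mean level of both libraries (log axis); grey points are the 9005 genes that reached 5 CPM, coloured points the 36 ER folding genes by role, dotted lines 2-fold. The scatter narrows with level: Ern1 lies in the wide part, Sec61g at the upper edge and Hspa5 and Hsp90b1 just below 0 in the narrow part.

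A further 106 genes of the same compartment were listed by function, of which 104 were in the table and 92 reached 5 CPM. Of these 92, 9 were 2-fold higher in IL-33 Tregs and 8 were 2-fold lower by library total, or 12 higher and 5 lower by TMM. Of all genes, 15.5% were higher and 16.3% lower by library total, and 17.9% higher and 13.9% lower by TMM. Their median log2 fold was -0.04. Among the other genes of the unfolded protein response, 1 of 17 was 2-fold higher and 4 were 2-fold lower. By library total 13 of the 17 lay below 0 (54.4% of all genes) and 10 had an interval below 1 (35.1%). By TMM 12 lay below 0 (48.3% of all genes) and 8 had an interval below 1 (29.7%), while 4 intervals lay above 1 by either scaling. Ppp1r15a, the phosphatase subunit GADD34 that reverses the action of PERK, was at 425 CPM in IL-33 Tregs and 307 CPM in PBS Tregs (ratio 1.38, 1.25 to 1.53). Wfs1, an ER membrane protein, had 0 counts in IL-33 Tregs and 13 in PBS Tregs. With the IL-33 count set at a floor of 3, it was 11.2-fold lower, and the exact interval of its ratio ended at 0.127. Mbtps2, the protease that releases ATF6 from the membrane, had 38 counts in IL-33 Tregs and 1 in PBS Tregs (ratio 14.7, 2.48 to 594). Wfs1 and Mbtps2 averaged under 10 CPM, where 37.2% of genes were 2-fold higher and 31.3% were 2-fold lower.

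The remaining translocation and signal peptide genes stayed within 2-fold in all 17 cases that reached 5 CPM, unlike Sec61g and Ssr2. By library total 6 of their intervals lay above 1 and 3 below, against 28.6% and 35.1% of all genes. With TMM 8 lay above 1 and 1 below, against 33.4% and 29.7%. The summed ratio of the list was 1.09 (1.06 to 1.13) by library total and 1.19 (1.15 to 1.23) by TMM. Sec62, a channel partner, was at 736 CPM in IL-33 Tregs and 799 CPM in PBS Tregs (ratio 0.921, 0.862 to 0.984). Srp68, of the signal recognition particle, was at 34.3 CPM (IL-33) and 63.5 CPM (PBS), a ratio of 0.540 (0.415 to 0.705), and Sec11c, of the signal peptidase, at 260.5 CPM (IL-33) and 179.8 CPM (PBS), a ratio of 1.45 (1.27 to 1.66). In the glycosylation and calnexin list, 2 of 16 were 2-fold higher and 1 was lower, against 15.5% and 16.3% of all genes. Stt3a, the catalytic subunit of the oligosaccharyltransferase that works at the SEC61 channel, was at 219 CPM in IL-33 Tregs and 89.0 CPM in PBS Tregs (ratio 2.46, 2.06 to 2.96). Dad1, another subunit of that enzyme, was at 395 CPM (IL-33) and 289 CPM (PBS), a ratio of 1.37 (1.23 to 1.52). In this list 5 intervals lay above 1 and 5 below by library total, against 28.6% and 35.1% of all genes. By TMM these numbers were 5 and 4, against 33.4% and 29.7%. Of the oligosaccharyltransferase genes, Ostc was above 1 with Stt3a and Dad1. Rpn1, Rpn2, Stt3b and Magt1 were below 1, with ratios of 0.805, 0.722, 0.663 and 0.748, and by TMM the interval of Rpn1 held 1. Clgn, a calnexin relative, had 32 counts in IL-33 Tregs and 0 in PBS Tregs. With the PBS count set at a floor of 3, it was 4.11-fold higher, and the exact interval of its ratio started at 3.16. Clgn averaged under 10 CPM, where 37.2% of genes were 2-fold higher and 31.3% were 2-fold lower.

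Among other folding enzymes, 3 of 18 were 2-fold higher and 1 was lower, against 15.5% and 16.3% of all genes. Cnpy2, a small ER protein of the saposin-like family, had 246 counts in IL-33 Tregs and 19 in PBS Tregs, or 60.3 CPM (IL-33) and 12.1 CPM (PBS), a ratio of 4.99 (3.13 to 8.44). Cdnf, the paralogue of Manf, had 24 counts in IL-33 Tregs and 0 in PBS Tregs. With the PBS count set at a floor of 3, Cdnf was 3.09-fold higher, and the exact interval of its ratio started at 2.32. Sdf2, the relative of Sdf2l1, was at 139.9 CPM (IL-33) and 184.9 CPM (PBS), a ratio of 0.757 (0.656 to 0.874). Other degradation genes did not share the low median of Sel1l, Edem1 and their group: it was -0.01 over 22 genes. Of these 22, 2 were 2-fold higher and 2 lower, against the same 15.5% and 16.3% of all genes. Selk, a selenoprotein of the degradation machinery, was at 682 CPM (IL-33) and 548 CPM (PBS), a ratio of 1.24 (1.15 to 1.34). Edem2, a relative of Edem1, had 42 counts in IL-33 Tregs and 1 in PBS Tregs (ratio 16.2, 2.75 to 655), and the ligase gene Tmem129 had 82 (IL-33) and 5 (PBS), a ratio of 6.32 (2.60 to 19.99). Cdnf and Edem2 averaged under 10 CPM, where 37.2% of genes were 2-fold higher and 31.3% were 2-fold lower. Cnpy2 and Tmem129 averaged 10 to 50 CPM, where 15.8% of genes were 2-fold higher.

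The receptors that return chaperones with a KDEL end from the Golgi were higher in IL-33 Tregs where they were counted. Kdelr1 had 79 counts in IL-33 Tregs and 14 in PBS Tregs (ratio 2.18, 1.22 to 4.16). Kdelr2 had 136 counts in IL-33 Tregs and 31 in PBS Tregs (ratio 1.69, 1.14 to 2.59). Kdelr3 had 0 counts in both. Both counted receptors lay in the range of 10 to 50 CPM, where 15.8% of genes were 2-fold higher.

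The libraries carried T cell genes throughout, with a summed level of 12755 CPM in IL-33 Tregs and 13007 CPM in PBS Tregs over 10 Treg and T cell markers, although Foxp3 itself had 40 counts in IL-33 Tregs and 1 in PBS Tregs. Marker lists of other cell types had lower sums, the highest being that of the fibroblast markers given above in PBS Tregs, and their part in the ER values was not tested. B and plasma cell markers summed to 36.0 CPM in IL-33 Tregs, with 7 of 8 detected, and to 30.5 CPM in PBS Tregs, with 6 of 8; Tnfrsf17 was at 0 in both and Sdc1 in PBS Tregs. Monocyte and macrophage markers summed to 44.4 CPM (IL-33) and 50.8 CPM (PBS), with 8 of 10 detected in each and Cd68 at 0 in both. Single markers of this list went both ways. Lyz2 had a ratio of 0.493 (0.348 to 0.701) and Itgam a ratio of 2.12 (1.14 to 4.31). Mrc1 had 17 counts in IL-33 Tregs and 0 in PBS Tregs. Endothelial markers summed to 49.3 CPM (IL-33) and 52.1 CPM (PBS), with 2 of 5 detected in each and Kdr, Tek and Emcn at 0, and Cdh5 had 3 counts (IL-33) and 11 counts (PBS). Dendritic cell markers summed to 21.6 CPM (IL-33) and 21.0 CPM (PBS), with 3 of 7 detected in each and Flt3, Clec9a and Cd209a at 0 in both. The near-equal sums came from different dendritic cell markers: Itgax had 0 counts in IL-33 Tregs and 19 in PBS Tregs, Zbtb46 had 18 in IL-33 Tregs and 0 in PBS Tregs, and Siglech had 28 in IL-33 Tregs and 2 in PBS Tregs. Muscle markers summed to 0.245 CPM (IL-33) and 2.54 CPM (PBS), with 1 of 7 detected (IL-33) and 3 of 7 (PBS) and Ckm, Des, Myod1 and Pax7 at 0 in both, and all 5 granulocyte markers in the table were at 0.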

How the data were processed

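The authors deposited a table of unnormalised counts, 1 column per library. TopHat2 2.0.10, Cufflinks 2.2.1 and mm10 are listed in the submitters' processing notes. How reads were counted, with which annotation and with what use of strand is not given in the sources. Per the labels' protocols, poly(A) RNA was amplified and sequenced as paired 25 bp reads without named molecular identifiers, so intervals and floors cover counting error only. Since strand is not stated, reads of a gene and an overlapping antisense gene cannot be told apart; 14 of the 36 genes overlap an exon of another gene.

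CPM and ratios were computed from the deposited counts and library totals, with exact conditional (Clopper-Pearson) 95% intervals. A single read was worth 0.245 CPM for IL-33 Tregs and 0.635 CPM for PBS Tregs, so that 0 counts allow up to 0.735 CPM for IL-33 Tregs and 1.91 CPM for PBS Tregs. With 1 library per group no p-value was computed. Comparisons covered genes reaching 5 CPM in 1 or both libraries, with a pseudocount of 1 CPM and a threshold of 2-fold. Transcript length is the median over principal coding transcripts in GENCODE M21. Alternatives were TMM (edgeR 4.0.16) and DESeq2 1.42.0 size factors, other pseudocounts and floors, and a correction for transcript length. All 36 genes are named, and of each further list the highest gene by mean CPM and the 2 farthest from 0. Rbm15b, Vprbp and Mis12 are named for their overlap with a named gene. Ssr4, Hnrnpa3 and Pan2 are also named, chosen after their values were seen. The genes and lists were chosen with earlier results of these data known. The computation was tested on simulated data. Python 3.11.15, numpy 2.4.6, pandas 2.3.3, scipy 1.17.1 and R 4.3.3 were used.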

Additional observations from a re-analysis of the deposited data

How the results depend on the processing

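No paired analysis was possible because each treatment had 1 library, and for the same reason no library could be left out. Of the 36 genes, 29 kept their direction under all 7 alternatives, and 2 more (Ern1 and Hyou1) under those they could be run in, since both lie under the floor of 20 CPM. The 5 that turned did so under TMM, DESeq2 size factors and the length correction. The summed ratio was 1.002 by TMM and 0.997 by DESeq2 size factors, against 0.921 by library total. Subtracting length group medians gave 2 genes past 2-fold lower in place of 1. For the 92 further ER genes, 5 were 2-fold lower by TMM and 4 with a pseudocount of 5 CPM, against 8, and with a floor of 20 CPM 3 were higher and 3 lower, against 9 and 8. The fewer calls at that floor come from fewer genes tested; the cause of the other shifts was not tested, apart from the 0.12 that TMM adds to every log2 ratio. Depth limits Ern1, Hyou1 and Syvn1, each under 40 counts.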
